A study of Mus musculus with 12 samples.

Results

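The genes described here are 10 genes of plasma cell differentiation and antibody secretion, namely Prdm1, Xbp1, Irf4, Sdc1, Mzb1, Fkbp11, Derl3, Pou2af1, Creld2 and Lman1. A probe set was taken when the array annotation gave exactly 1 of these symbols, which selected 10 of the 18193 genes on the array and 23 of its 45037 probe sets. Lman1 had 5 probe sets, Xbp1 and Sdc1 had 4 each, Fkbp11 had 3, Irf4 had 2, and the other genes had 1 each. RNA was measured in the spleens of female mice of the BALB/cJ and BALB/cByJ colonies of BALB/c on 12 whole-genome oligonucleotide arrays, 1 array per animal and 3 per group. Each colony had a naïve and an immunized group. Immunized mice had received a single intraperitoneal injection of cartilage proteoglycan (PG, 100 µg of protein) in 2 mg of the adjuvant dimethyldioctadecylammonium bromide (DDA), and spleens were taken on day 12. No group received the adjuvant alone, so PG and DDA cannot be told apart, and no age was given for these animals. The sample numbers of the naïve mice ran from 10 to 15 and those of the immunized mice from 29 to 50, so immunization cannot be told apart from any difference between these ranges. Naïve BALB/cByJ had the numbers 10 to 12 and naïve BALB/cJ 13 to 15. Immunized BALB/cByJ had 29, 31 and 48 and immunized BALB/cJ 33, 49 and 50, so colony and number were not balanced.

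A plasma cell is the end stage of a B cell that has turned to secreting antibody. Blimp-1, the product of Prdm1, and IRF4 are transcription factors that drive this step and shut down the program of the resting B cell, while XBP1 enlarges the endoplasmic reticulum (ER) so that large amounts of immunoglobulin can be folded and exported. Plasma cells are few in an unstimulated spleen and increase after immunization, when antibodies to PG, which are part of the arthritis model this strain is used for, are made. In whole spleen, more plasma cells and more RNA per plasma cell cannot be told apart.

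All values below are log2 values from which the median of the same probe set over the 12 arrays was subtracted, so 0 is the median array and a value holds no signal level. The markers that define spleen could therefore be compared between arrays but not checked for presence. A difference was called when its adjusted p (limma, Benjamini-Hochberg over all 45037 probe sets) was under 0.05. P values measure the spread between animals within groups (3 per group), pooled over the 4 groups and moderated across all probe sets. Each animal gave 1 array.

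The upstream regions of 8 of the 10 genes were matched in RefSeq (build GRCm38.p6), as windows of 250 bases before to 50 bases after the annotated start. Mzb1 and Lman1 were not matched. The windows were searched on both strands for the ER stress response element ERSE (CCAAT, then 9 bases of any kind, then CCACG), which ATF6 with the factor NF-Y and XBP1 are known to bind, and for the unfolded protein response element UPRE (TGACGTGG), known to be bound by XBP1. Windows with a match are shown because these letters are the only ones of the larger motifs searched that occurred in the members, and the matched bases are in capitals. In Derl3 (chr10:75893148-75893447, plus strand) the match to ERSE lay on the opposite strand from -156 to -138 relative to the start, in Creld2 (chr15:88819396-88819695, plus strand) on the opposite strand from -126 to -108, and in Pou2af1 (chr9:51213440-51213739, plus strand) the match to UPRE lay from -61 to -54.
Derl3: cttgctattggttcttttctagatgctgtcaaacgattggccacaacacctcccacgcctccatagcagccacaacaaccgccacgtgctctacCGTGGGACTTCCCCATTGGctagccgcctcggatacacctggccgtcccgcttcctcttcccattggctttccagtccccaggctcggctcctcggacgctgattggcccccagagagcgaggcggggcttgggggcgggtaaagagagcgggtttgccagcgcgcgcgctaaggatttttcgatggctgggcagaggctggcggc
Creld2: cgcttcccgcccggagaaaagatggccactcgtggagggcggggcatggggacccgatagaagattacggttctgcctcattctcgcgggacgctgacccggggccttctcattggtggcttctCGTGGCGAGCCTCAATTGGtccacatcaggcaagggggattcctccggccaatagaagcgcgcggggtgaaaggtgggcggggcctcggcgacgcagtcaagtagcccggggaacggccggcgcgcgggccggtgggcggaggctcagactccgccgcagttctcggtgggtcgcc
Pou2af1: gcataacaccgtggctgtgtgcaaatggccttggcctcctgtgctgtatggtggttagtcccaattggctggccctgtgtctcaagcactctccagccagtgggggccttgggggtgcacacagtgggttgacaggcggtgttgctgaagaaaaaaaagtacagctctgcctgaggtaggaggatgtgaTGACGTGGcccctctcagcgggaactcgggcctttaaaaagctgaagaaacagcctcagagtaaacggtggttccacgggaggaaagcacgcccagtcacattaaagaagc

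ERSE was present in 39 of all 32851 windows (0.119%) and UPRE in 222 (0.676%). ERSE-II (ATTGG, 1 base of any kind, CCACG; 0.0365% of windows), the octamer ATGCAAAT read by the OCT factors that OBF-1, the product of Pou2af1, joins (1.74%), the interferon response core (GAAA, 2 bases of any kind, GAAA; 3.44%) and the ETS-IRF composite (GGAA, 2 bases of any kind, GAAA; 2.72%) occurred in none of the 9 member windows. ERSE contains CCAAT and CCACG by construction, and UPRE overlaps CCACG on the other strand. The short parts were common, with CCAAT in 37.4% and CCACG in 32.8% of all windows. A match is a description of the letters and was not tested for binding.

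In the spleens of naïve mice, most of the plasma cell genes had lower values in the BALB/cByJ colony. Of 23 probe sets 18 were lower and 5 higher, with a median log2 difference of -0.23 against -0.01 over all probe sets. Irf4 and Sdc1 each had 1 probe set called lower and Lman1 had 1 called higher, so 3 of 23 (13%) were called, against 4.39% of all probe sets (1.71% lower, 2.68% higher). By gene, where the probe sets of a gene were averaged, 9 of 10 genes were lower, the median difference was -0.20 and none was called, against 7.54% of all genes. Of 17 T cell genes only 1 was higher in naïve BALB/cByJ, with a median of -0.10 and 0 called. The plot of the gene values by group shows naïve BALB/cByJ as the lowest group for 9 of the 10 genes.

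**Figure D1:**
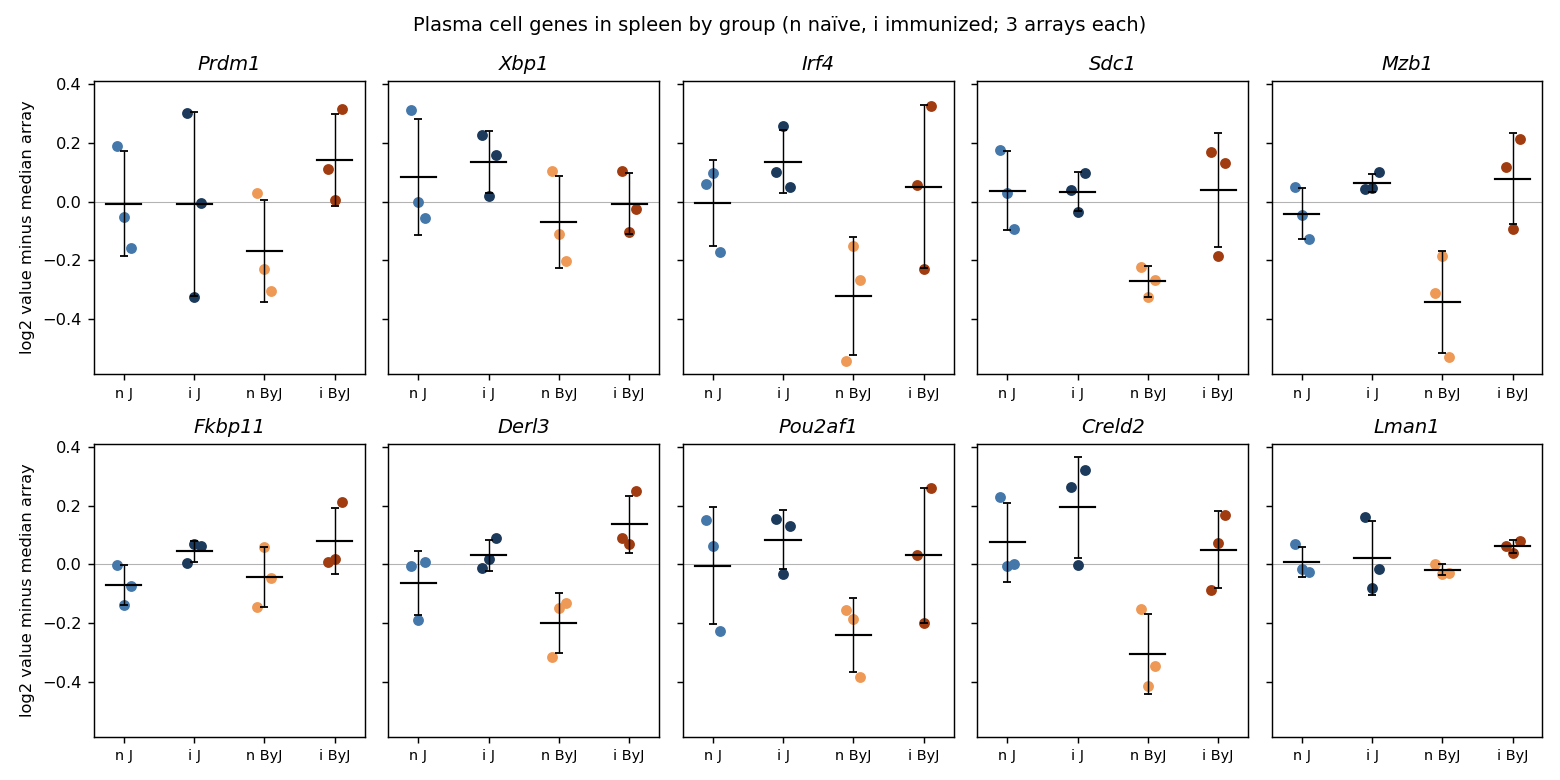
Gene-level log2 values minus the median array (vertical axis) of the 10 plasma cell genes in naïve (n) and immunized (i) BALB/cJ (J) and BALB/cByJ (ByJ) mice; each point is 1 array, the horizontal line the group mean and the bar 1 SD (n = 3). In Mzb1 the 3 naïve BALB/cByJ spleens lay between -0.53 and -0.18, below the other 9.

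Irf4, which encodes a factor required for both germinal center exit and plasma cell formation, was measured by 2 probe sets. With 1421173_at the naïve BALB/cByJ spleens had -0.34, -0.17 and -0.20, and the naïve BALB/cJ spleens had 0.12, 0.20 and 0.10. The colonies did not overlap, and BALB/cByJ was lower by a log2 difference of -0.38 (SE 0.094, 0.77-fold, adjusted p = 0.0424). In the immunized mice the same probe set had 0.03, -0.09 and 0.25 in BALB/cByJ and -0.03, 0.11 and -0.03 in BALB/cJ, which overlapped (difference 0.04, adjusted p = 0.934). The second probe set, 1421174_at, was more variable, with naïve BALB/cByJ values of -0.74, -0.14 and -0.33 against 0.01, -0.01 and -0.44 in naïve BALB/cJ. These overlapped (difference -0.26, SE 0.197, adjusted p = 0.544). The 2 probe sets correlated over the 12 arrays at r = 0.69.

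Sdc1 encodes syndecan-1 (CD138), the heparan sulfate proteoglycan by which plasma cells are commonly recognized. Its probe set 1415943_at had -0.34, -0.51 and -0.28 in naïve BALB/cByJ and 0.29, 0.01 and -0.01 in naïve BALB/cJ. The groups did not overlap, and the difference of -0.47 (SE 0.119, 0.722-fold) was called (adjusted p = 0.0449). After immunization BALB/cByJ had 0.26, -0.14 and 0.20 and BALB/cJ had 0.14, -0.04 and 0.09, which overlapped. The other 3 Sdc1 probe sets were also lower in naïve BALB/cByJ, by -0.23 to -0.29, and were not called. The 4 probe sets correlated at r between 0.28 and 0.81.

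The remaining members are given by role. Of the transcriptional regulators, Prdm1 differed by -0.16 (SE 0.153, adjusted p = 0.642) between the naïve colonies and its groups overlapped. Pou2af1, a B cell coactivator needed for germinal centers, differed by -0.24 (adjusted p = 0.351), also with overlap. Xbp1 differed by -0.30 with 1420886_a_at, for which the groups did not overlap (adjusted p = 0.19), by -0.26 and -0.14 with 1420011_s_at and 1437223_s_at, and by 0.09 with 1420012_at. That last probe set did not follow the others, since the Xbp1 probe sets correlated with each other at r between -0.45 and 0.95.

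Of the ER proteins, Creld2, an ER stress-induced chaperone-like protein, had -0.15, -0.42 and -0.35 in naïve BALB/cByJ and 0.23, -0.0043 and 0.00046 in naïve BALB/cJ. The groups did not overlap, and the difference of -0.38 (SE 0.112) had an adjusted p of 0.0779. Mzb1, an ER co-chaperone of immunoglobulin assembly, had -0.31, -0.18 and -0.53 against 0.05, -0.04 and -0.13. It did not overlap either and its difference of -0.30 (SE 0.102) had an adjusted p of 0.123. Derl3, a part of the machinery that returns misfolded proteins from the ER for degradation, differed by -0.14 (adjusted p = 0.439) with overlap. Fkbp11, a peptidyl-prolyl isomerase of secretory cells, differed by -0.12 with 1417267_s_at, by 0.17 with 1425839_at and by 0.04 with 1425938_a_at, and its probe sets correlated at r of 0.01 to 0.38.

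Lman1 encodes ERGIC-53, a lectin that carries glycoproteins from the ER toward the Golgi apparatus, and its probe sets went in different directions. With 1419951_at the naïve BALB/cByJ spleens had 0.29, 0.44 and 0.39 and the naïve BALB/cJ spleens had 0.01, -0.12 and -0.01. BALB/cByJ was higher by 0.41 (SE 0.0816, 1.33-fold, adjusted p = 0.0175), without overlap. The immunized spleens had -0.03, 0.09 and 0.22 in BALB/cByJ and -0.21, -0.25 and -0.29 in BALB/cJ, again without overlap, with a difference of 0.35 (adjusted p = 0.276). Over both states the colonies differed by 0.38 (SE 0.0577, adjusted p = 0.0061), and in the comparison of all 4 groups by the F-test of limma it was the only member called (adjusted p = 0.0153, against 1.77% of all probe sets). The other 4 Lman1 probe sets differed between the naïve colonies by -0.30 to 0.02 and none was called. The 5 probe sets correlated at r between -0.54 and 0.74, so averaging them left a gene-level difference of -0.03 (SE 0.0672). The positions of the probes of 1419951_at were not analysed here, and it was not checked that this probe set measures Lman1 RNA.

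The one-way analysis of variance made none of these 3 calls. Its share of all probe sets was not counted, so it is not known whether it called fewer probe sets in general. In limma, 0 of the 3 calls were left without replicate 2 or 3 of naïve BALB/cByJ or without replicate 1 or 2 of naïve BALB/cJ. In total 10 of 23 member probe sets did not overlap between the naïve colonies, against 21.7% of all probe sets. The erythroid and cell cycle genes differed between the same groups, with 21 of 23 erythroid genes and 29 of 29 cell cycle genes called higher in naïve BALB/cByJ. The erythroid median was -1.28, -1.50 and -0.27 in replicates 1, 2 and 3 of naïve BALB/cJ and 0.22 to 0.68 in naïve BALB/cByJ. Genes of 3 further tissues were high in single spleens. Pigment cell genes, led by Dct, reached 6.29 and 6.26 in replicates 1 and 2 of naïve BALB/cJ, they were also high in replicate 1 of immunized BALB/cJ (Dct 5.69) and replicate 2 of immunized BALB/cByJ (Dct 4.72), and acinar pancreas genes had a median of 1.57 in replicate 1 of naïve BALB/cByJ, where Cpb1 was 4.25. Dct was 2.27 in replicate 3 of naïve BALB/cJ, where the pigment cell list had a median of -0.0038. Adipose genes had a median of 0.42 in replicate 1 of immunized BALB/cJ, with 3 of 10 genes over 1 and Adipoq at 2.81, and Adipoq was 1.64 in replicate 3 of naïve BALB/cJ and 1.44 in replicate 1 of naïve BALB/cByJ. The part of these tissues in the result was not tested beyond the fits that follow, with a covariate or without some arrays. With the erythroid mean as a covariate the median of the members was -0.07 and 0 were called. The erythroid medians did not overlap between the naïve colonies, so this covariate takes up part of any colony difference. A call lost with it therefore cannot be read either way. Without the 4 arrays with high pigment genes the median was -0.03. That fit left replicate 3 as the only naïve BALB/cJ spleen. Without replicate 1 of naïve BALB/cByJ, the spleen with the pancreas genes, the median was -0.21, and without replicate 1 of naïve BALB/cJ, 1 of the pigment arrays, it was -0.14 with 5 probe sets higher and 18 lower.

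In the immunized mice, 1 of 23 probe sets (Lman1 1419951_at) did not overlap between the colonies, against 15% of all probe sets. Of 23 probe sets 12 were higher and 11 lower in BALB/cByJ, with a median log2 difference of 0.0021. This balance turned with single spleens, with 7 higher and 16 lower (median -0.06) without replicate 3 of immunized BALB/cByJ, and 14 higher and 9 lower (median 0.07) without replicate 2. None was called by limma, against 0.12% of all probe sets. The same Lman1 probe set was the only 1 with an unadjusted limma p under 0.05, against 3568 of all 45037 probe sets. The one-way analysis of variance, whose share of all probe sets was not counted, called none either. The 95% intervals were -0.16 to 0.25 for Irf4 1421173_at and -0.21 to 0.30 for Sdc1 1415943_at. Differences within these ranges, in either direction, could not be told from 0.

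**Figure D2:**
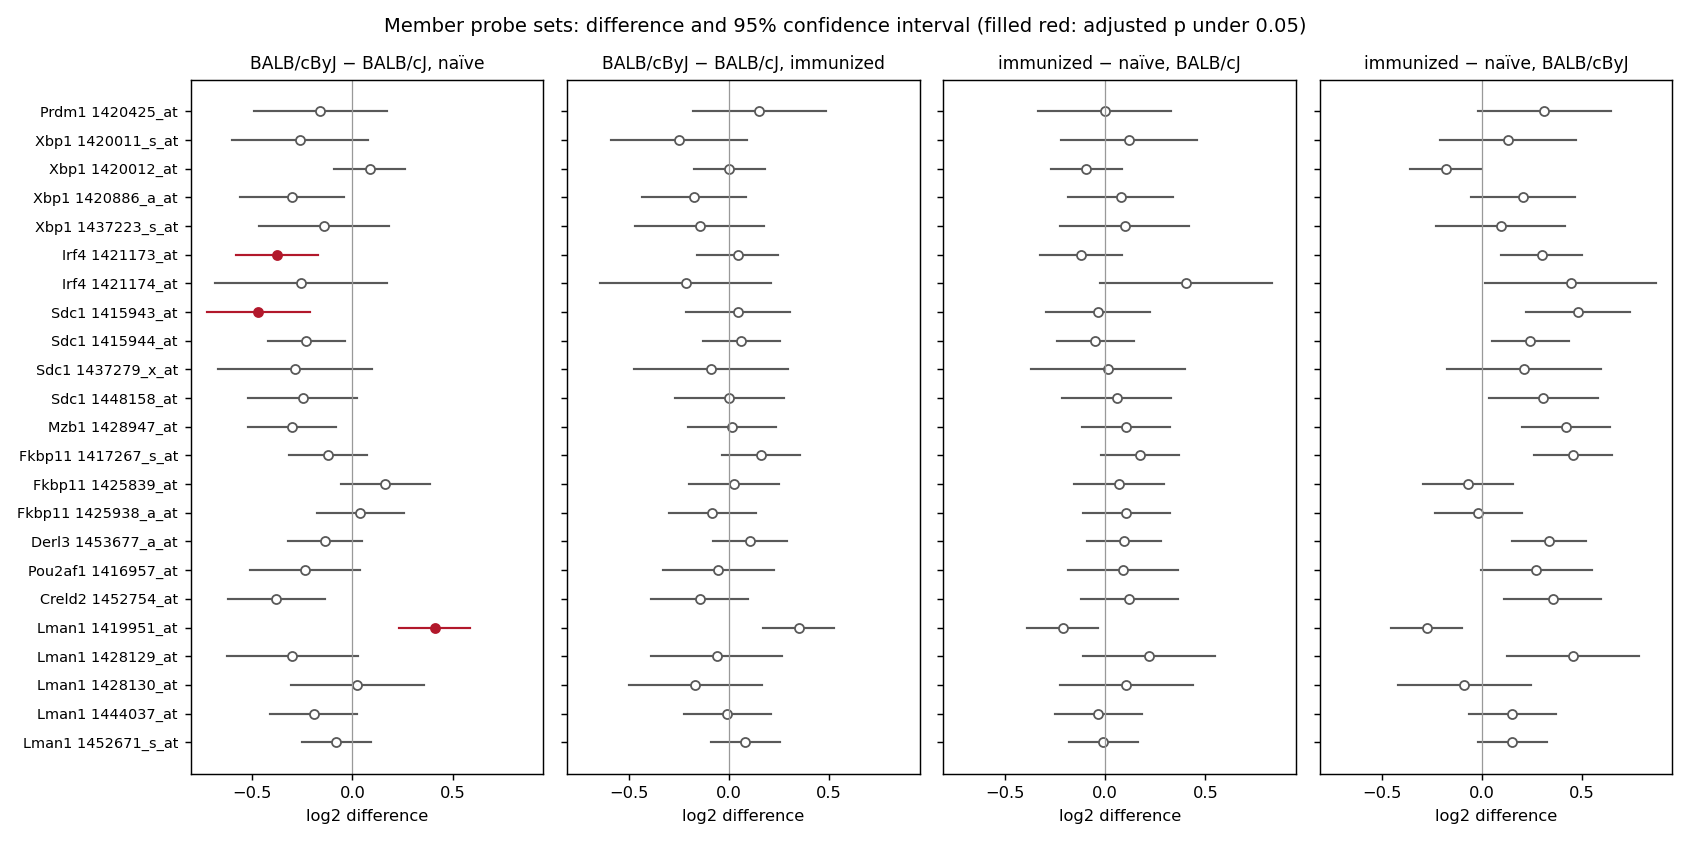
Log2 differences (horizontal axis) with 95% confidence intervals of the 23 probe sets of the plasma cell genes in 4 comparisons; filled red points had an adjusted p under 0.05. The 3 called probe sets are all in the comparison of the naïve colonies, with Irf4 and Sdc1 to the left of 0 and Lman1 1419951_at to the right.

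Immunization in BALB/cByJ went with higher values of most plasma cell genes, but none passed the adjusted threshold. Of 23 probe sets 18 were higher and 5 lower, with a median of 0.24 against -0.0002 over all probe sets. By gene all 10 were higher, with a median of 0.31. Of 17 T cell genes 14 were higher too (median 0.16), and of 23 erythroid genes 0 were higher. Limma called 0 of 23, against 0.0511% of all probe sets, and the smallest adjusted p was 0.177. The one-way analysis of variance, whose share of all probe sets was not counted, also called 0. In limma 12 of 23 had an unadjusted p under 0.05, against 3738 of all 45037 probe sets. Among the 12, Xbp1 1420012_at and Lman1 1419951_at were lower. In 11 of 23 probe sets the immunized and naïve spleens did not overlap, against 12.1% of all probe sets. The naïve BALB/cByJ arrays enter both this comparison and that of the naïve colonies, so the low values of those 3 spleens count in both.

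The Fkbp11 probe set 1417267_s_at had -0.26, -0.24 and -0.20 in naïve and 0.15, 0.10 and 0.41 in immunized BALB/cByJ, without overlap (difference 0.46, SE 0.0896, adjusted p = 0.177). The other Fkbp11 probe sets differed by -0.07 and -0.02. For Mzb1 the immunized spleens had 0.12, -0.09 and 0.21, all above the naïve spleens of the colony, and the difference was 0.42 (SE 0.102, adjusted p = 0.314). Derl3 had -0.32, -0.15 and -0.13 in naïve and 0.09, 0.07 and 0.25 in immunized BALB/cByJ. These did not overlap (difference 0.34, SE 0.0857, adjusted p = 0.335).

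Sdc1 1415943_at differed by 0.48 (SE 0.119, 1.4-fold, adjusted p = 0.314) and did not overlap, and the other Sdc1 probe sets differed by 0.21 to 0.31. Creld2, with -0.09, 0.07 and 0.17 in the immunized spleens, differed by 0.36 (adjusted p = 0.444), also without overlap. Among the regulators, Irf4 differed by 0.30 (1421173_at, adjusted p = 0.444) and 0.45 (1421174_at, adjusted p = 0.587). Prdm1 differed by 0.31 (adjusted p = 0.618) and Pou2af1 by 0.27 (adjusted p = 0.605), both with overlap. The 4 Xbp1 probe sets differed by -0.18 to 0.21. For Lman1, 1428129_at differed by 0.46 (adjusted p = 0.478) and 1419951_at by -0.27 (adjusted p = 0.427), in opposite directions.

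In BALB/cJ the median difference with immunization was 0.08, and it moved with single spleens. It was 0.0055 without replicate 3 of naïve BALB/cJ (13 probe sets higher, 10 lower), 0.04 without replicate 2 of naïve or replicate 1 of immunized BALB/cJ, and 0.14 without replicate 1 of naïve BALB/cJ (19 higher, 4 lower). With all spleens, 15 of 23 probe sets were higher and 8 lower, and limma called none, against 0% of all probe sets. The one-way analysis of variance called none of the 23 either. Lman1 1419951_at was the only 1 with an unadjusted limma p under 0.05, against 4137 of all 45037 probe sets. Sdc1 1415943_at differed by -0.04 (95% interval -0.29 to 0.22), Mzb1 by 0.10 (-0.12 to 0.33) and Fkbp11 1417267_s_at by 0.17 (-0.02 to 0.37). The largest difference was 0.40 for Irf4 1421174_at (adjusted p = 0.572), which did not overlap, whereas 1421173_at of the same gene differed by -0.12.

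Whether the response to immunization differed between the colonies was tested directly as the difference of the 2 responses. Of 23 probe sets 17 had a larger response in BALB/cByJ, with a median of 0.19 against 0.0037 over all probe sets. Without replicate 1 of naïve BALB/cJ these became 15 of 23 and 0.11. Other gene lists moved in the same direction. By gene, 16 of 17 T cell genes had a larger response in BALB/cByJ (median 0.26). So did 18 of 20 genes of the B cell state that plasma cells switch off (median 0.16). The members by gene had a median of 0.23. Of 23 erythroid and 29 cell cycle genes 0 had a larger response in BALB/cByJ. None of the 23 member probe sets was called, against 0% of all probe sets, and the smallest adjusted p was 0.534. Of the 23, 5 had an unadjusted p under 0.05, against 3417 of all 45037 probe sets. The 5 were Irf4 1421173_at (0.42), Sdc1 1415943_at (0.52) and 1415944_at (0.29), Mzb1 (0.32) and Fkbp11 1417267_s_at (0.28). With both colonies together, 21 of 23 probe sets were higher after immunization (median 0.13), and none was called, against 0.0466% of all probe sets. Of the 23, 9 had an unadjusted p under 0.05, against 4465 of all 45037 probe sets. Among the 9, Xbp1 1420012_at and Lman1 1419951_at were lower. Fkbp11 1417267_s_at had the smallest adjusted p, 0.153, for a difference of 0.31 (SE 0.0634). Over both states, 1 of 23 probe sets was called between the colonies (Lman1 1419951_at, higher as given above), against 4.62% of all probe sets (3.04% higher).

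Neutrophil and granulocyte precursor genes moved with immunization too, with 9 of 15 called higher over both colonies, against 0.159% of all genes. Their median was -0.98 to -0.61 in naïve and -0.12, 0.54 and 1.17 in immunized BALB/cByJ, and it was highest in replicate 3 of immunized BALB/cByJ, where Mmp8 was 1.47. That same spleen had the highest value of 6 of the 10 plasma cell genes. Their part in the result was not tested. Without that spleen, 19 of 23 member probe sets were higher after immunization in BALB/cByJ, with a median of 0.20. The heat map of list medians shows these values side by side.

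**Figure D3:**
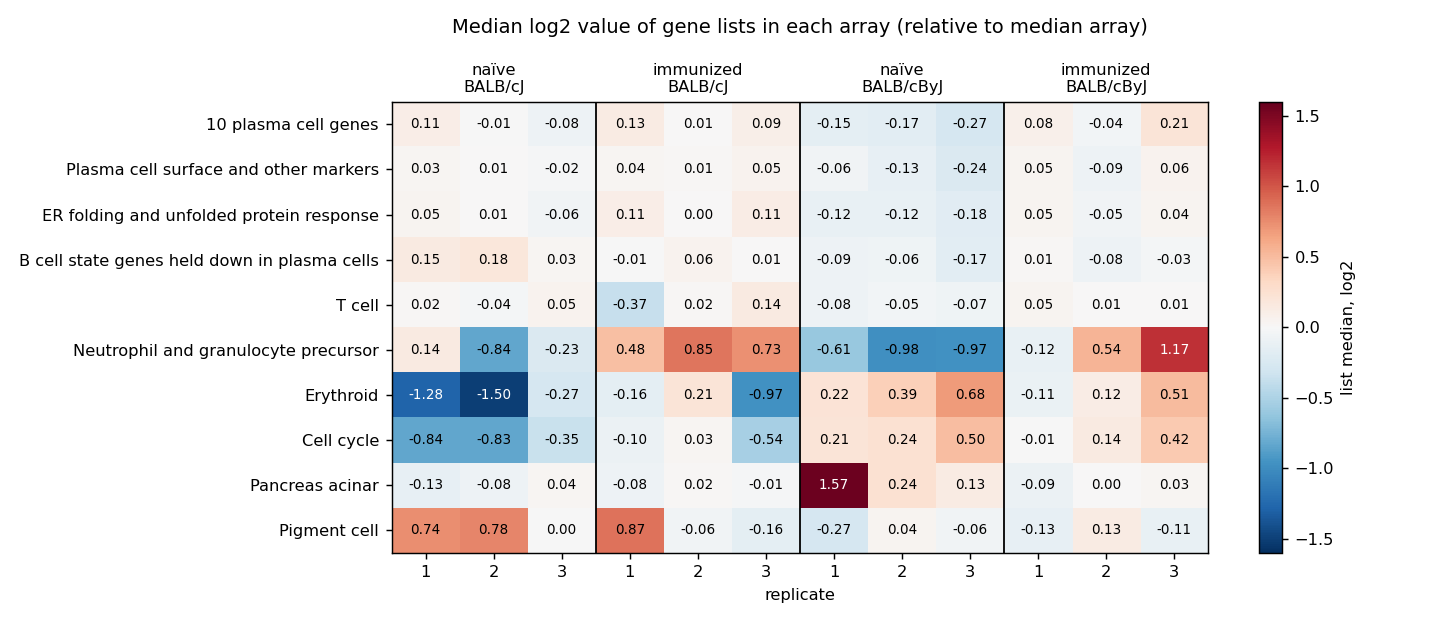
Median log2 value, relative to the median array, of the 10 plasma cell genes and of 9 gene lists (rows) in each of the 12 spleens (columns, grouped by colony and treatment); red is above and blue below the median array. The plasma cell genes were negative in all 3 naïve BALB/cByJ spleens (-0.15, -0.17 and -0.27), and the pancreas, pigment cell and erythroid rows show the spleens that stood apart.

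Spleens of 1 group differed among themselves. The gene-level median of the 10 genes was 0.11, -0.0098 and -0.08 in naïve BALB/cJ, 0.13, 0.0081 and 0.09 in immunized BALB/cJ, and 0.08, -0.04 and 0.21 in immunized BALB/cByJ. For 8 of 10 genes the lowest of all 12 spleens was a naïve BALB/cByJ spleen, and for the other genes it was replicate 2 of immunized BALB/cJ. The range over the 12 spleens was widest for Irf4 1421174_at (1.15) and narrowest for Lman1 1452671_s_at (0.24). At gene level Prdm1 and Lman1 correlated at r = 0.91 and Pou2af1 and Mzb1 at r = 0.88, while Xbp1 and Fkbp11 correlated at r = -0.03, each over the same 12 arrays.

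Outside the 10 members, the genes whose gene-level values followed the members' median most closely over the 12 spleens were Edem1 (r = 0.96, rho = 0.94), Tnfaip3 (r = 0.96, rho = 0.97), Rilpl2 (r = 0.95, rho = 0.97), Cd83 (r = 0.95, rho = 0.94), Sypl (r = 0.95, rho = 0.94) and Zfp654 (r = 0.95, rho = 0.94). Edem1 takes misfolded glycoproteins to degradation, Tnfaip3 encodes the NF-κB inhibitor A20, and Cd83 is a marker of activated B cells and dendritic cells. Cd83 had -0.45, -0.51 and -0.59 in naïve BALB/cByJ and 0.14, 0.02 and -0.05 in naïve BALB/cJ. These correlations are over 12 arrays that share the group structure, and they are given as a description.

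The machinery that plasma cells use was followed in 5 further gene lists, by gene. In the ER folding and unfolded protein response list, 1 of 33 measured genes was called lower between the naïve colonies and 0 higher, against 3.37% lower and 4.17% higher of all genes. That gene was Pdia6, a disulfide isomerase (-0.30, SE 0.0719, adjusted p = 0.0289). The median of the list was -0.15 against -0.01 over all genes, with 30 of 33 genes lower. Over both states Hsp90b1, the ER chaperone GRP94 (-0.31, adjusted p = 0.0376), Dnajb9, an ER co-chaperone (-0.29, adjusted p = 0.044), and Pdia6 (-0.21, adjusted p = 0.0287) were called lower, against 2.93% of all genes. After immunization in BALB/cByJ 30 of 33 were higher with a median of 0.13, and limma called none. An unadjusted p under 0.05 was found for 13 of 33, against 1504 of all 18193 genes. Of 29 genes of the list with a RefSeq window, 7 held ERSE, namely Calr, Canx, Dnajc3, Hsp90b1, Hspa5, Pdia6 and Syvn1, as did 2 of the 8 members with a window and 37 of 27025 genes in all (0.137%). Of the 20 ERSE genes measured, 15 were lower and 5 higher in naïve BALB/cByJ, where 46.6% of all genes were higher. A call was made for 1 of the 20, against 7.54% of all genes. The 20 include these 7 list genes and the members Creld2 and Derl3. Of 143 UPRE genes measured, 62 were higher (43.4%) and 81 lower.

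In the list of translocation and signal peptide cleavage, none of 27 genes was called in any comparison. Between the naïve colonies 6 had an unadjusted p under 0.05, against 4076 of all 18193 genes. The smallest p values were those of Srpr, the receptor of the signal recognition particle (-0.21, adjusted p = 0.0728), and Rpn1, an oligosaccharyltransferase subunit (-0.21, adjusted p = 0.112). Of 28 ER to Golgi list genes, 1 was called higher and 2 lower in naïve BALB/cByJ, against 4.17% and 3.37% of all genes. Surf4, a cargo receptor, was called higher in BALB/cByJ in the naïve mice (0.44, SE 0.0768, adjusted p = 0.00896) and in the immunized mice (0.49, adjusted p = 0.0289, against 0.0824% of all genes higher). Sec31a, a COPII coat protein (-0.28, adjusted p = 0.017), and Kdelr3, a receptor that returns ER proteins (-0.33, adjusted p = 0.0314), were called lower in naïve BALB/cByJ. Over both states Surf4 was called higher (0.46, adjusted p = 0.00133). Sec24d, another COPII protein, was called lower over both states (-0.40, adjusted p = 0.0287), as was Kdelr3 (-0.28, adjusted p = 0.0162). In that comparison 7.67% of all genes were called, with 2.93% lower.

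**Figure D4:**
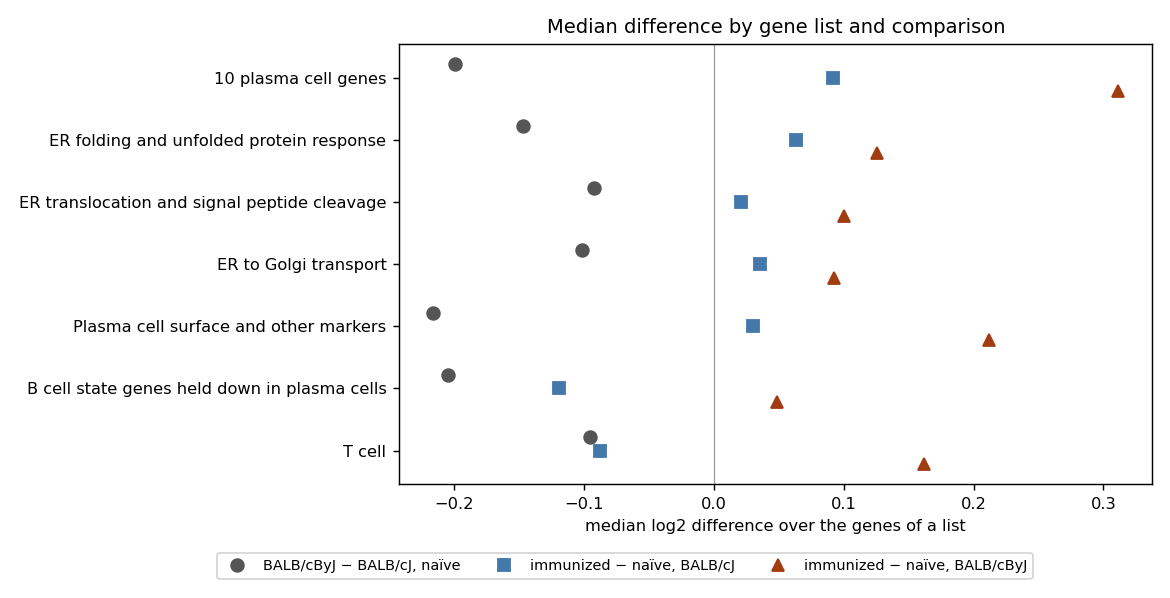
Median log2 difference (horizontal axis) of the 10 plasma cell genes and of 6 gene lists (rows) between the naïve colonies (circles) and with immunization in BALB/cJ (squares) and BALB/cByJ (triangles). The plasma cell genes lay at -0.20, 0.09 and 0.31, and all 7 rows were negative between the naïve colonies, the T cell list included.

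Among 26 genes of the plasma cell surface and other markers list, 1 was called higher and 1 lower in naïve BALB/cByJ. Of all genes, 4.17% were called higher and 3.37% lower. Slc7a5, an amino acid transporter of dividing and secreting cells, was higher (0.98, SE 0.166, adjusted p = 0.00855). St6gal1, the sialyltransferase of glycoproteins, was lower (-0.40, SE 0.0953, adjusted p = 0.0258). Slc7a5 was thus opposite in direction to the list, whose median was -0.22. Its difference was 0.33 with the erythroid mean as a covariate (adjusted p = 0.637) and 0.75 without the 4 pigment arrays. Eaf2, a transcription elongation factor raised in germinal centers and plasma cells, was the only gene of the 5 lists called with immunization, in BALB/cByJ (1.02, SE 0.151, 2.02-fold, adjusted p = 0.0252), against 0.0824% of all genes. It was not called without replicate 1 or 3 of immunized BALB/cByJ or without replicate 2 or 3 of naïve BALB/cByJ (adjusted p = 0.0618 to 0.205).

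Of 20 genes of the B cell state that plasma cells switch off, 3 were called lower in naïve BALB/cByJ, against 3.37% of all genes, and 17 were not called. All 20 differences were below 0, with a median of -0.20. Mitf, which is also in the pigment cell list, was the highest of the 20 in replicates 1 and 2 of naïve BALB/cJ (0.74 and 0.78). Pigment cell genes were high in those spleens. The called genes were Fcer2a, the low-affinity IgE receptor CD23 (-0.45, SE 0.103, adjusted p = 0.0233), Ciita, the activator of MHC class II genes (-0.28, SE 0.0693, adjusted p = 0.0316), and Bcl6, the repressor that holds germinal center B cells (-0.32, SE 0.0845, adjusted p = 0.0416). With the erythroid mean as a covariate Ciita was -0.13 and Bcl6 -0.12. With immunization in BALB/cByJ 13 of 20 were higher, with a median of 0.05 and none called by limma. An unadjusted p under 0.05 was found for 4 of 20, against 1504 of all 18193 genes. Of the 5 immunoglobulin genes measured, Ighg3 (-0.59, SE 0.137, adjusted p = 0.0237) and Igha (-1.43, SE 0.352, adjusted p = 0.0306) were called lower in naïve BALB/cByJ, against 3.37% of all genes. Immunization in BALB/cByJ gave differences of 0.44 for Ighg3 and 0.73 for Igha (adjusted p = 0.363 and 0.621). The companion and immunoglobulin lists held 23 called differences and the member probe sets 4, 27 in all. With the erythroid mean as a covariate 3 of these were still called (Surf4 in immunized mice and over both states, and Eaf2). That covariate itself differed between the naïve colonies, so the lost calls cannot be read either way. Without the arrays high in pigment genes only replicate 3 of naïve BALB/cJ was left in its group, so calls are not counted. None of the 27 changed sign under either. With the covariate Irf4 1421173_at differed by -0.48, Sdc1 1415943_at by -0.37 and Lman1 1419951_at by 0.28 between the naïve colonies, and without the pigment arrays by -0.33, -0.36 and 0.39. Surf4 differed by 0.62 between the naïve colonies with the covariate, whereas over both states Hsp90b1 and Sec24d were -0.15 and -0.18 with it.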

How the data were processed

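Spleen RNA was measured on 12 whole-genome mouse arrays, 1 per animal. Per the labels and methods, the authors summarized probes by RMA in GeneSpring (quantile normalization, then median polish). They deposited log2 values with the median of each probe set over the 12 arrays subtracted. No source used here states the base of the logarithm, which was read as 2. Removal of 64 control probe sets left 45037 for testing, and 34945 of these named 1 gene.

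One limma model (3.58.1, R 4.3.3; lmFit, eBayes) covered the 4 groups, with 7 contrasts and an F-test. Gene values are means of the probe sets naming only that gene. No signal level remains, so dim probe sets could not be filtered, and the number of arrays limits the precision. The fit was tested on simulated data. No pair of arrays was identical. The members and all lists were chosen with earlier results of these data known. Named genes are all members, up to 4 called genes of each list by smallest p (2 where none was called), the highest gene of each list of other cells, and the 6 genes most correlated with the members. Alternatives changed the test, scaling, variance model, weights, blocks, covariate, probe sets or arrays.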

Additional observations from a re-analysis of the deposited data

How the results depend on the processing

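The count of 3 member probe sets called between the naïve colonies became 0 with the methods' one-way analysis of variance and with the 2 compared groups fitted alone. It also became 0 with the erythroid covariate, which itself differed between the naïve colonies, and by gene (of 10), and 1 with quantile normalization. The fit without the 4 arrays high in pigment genes left a single naïve BALB/cJ spleen, so no counts are given for it. Leaving out single arrays gave 0 to 3, with 0 without replicate 2 or 3 of naïve BALB/cByJ or replicate 1 or 2 of naïve BALB/cJ, and 1 without replicate 1 or 3 of immunized BALB/cJ. Over both states the count of 1 became 2 with array weights and 0 with the erythroid covariate and by gene. Leaving out single arrays gave 1 to 2, with 2 without replicate 1 of naïve BALB/cByJ or replicate 2 of immunized BALB/cJ. The F-test count of 1 became 0 with the analysis of variance, with the erythroid covariate and by gene, 2 with quantile normalization and 5 with array weights. Leaving out single arrays gave 0 to 1, with 0 without replicate 3 of naïve BALB/cByJ. The causes were not tested. The counts of the other 5 contrasts were 0 under every alternative counted. No named difference of a member or list gene changed sign while called.

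Between the naïve colonies, the difference of Irf4 1421173_at ranged from -0.48 to -0.32 (adjusted p 0.0115 to 0.923), that of Sdc1 1415943_at from -0.52 to -0.36 (0.0176 to 0.907), and that of Lman1 1419951_at from 0.28 to 0.49 (0.0019 to 0.907). These ranges include the fit without the pigment arrays, where a single naïve BALB/cJ spleen was left. A block for the 2 sample-number runs of the immunized arrays (29 to 33 and 48 to 50) left Irf4 and Lman1 called and gave Sdc1 an adjusted p of 0.0554.

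Of the 27 called single differences of member probe sets and list genes, 16 stayed called with quantile normalization, 27 with array medians subtracted, 26 with array weights and 22 with the run block. Of the 16 between single groups, 0 were called by the analysis of variance and 6 with the compared groups alone. For the analysis of variance the share of all probe sets called was not counted. Leaving out single arrays kept 7 to 24, fewest without replicate 2 of naïve BALB/cJ.

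The titles number the replicates without stating a pairing. Same-numbered arrays of different groups correlated in their deviations at r of -0.289 to 0.368, with 9 of 18 pairs over 0.1. Differently numbered arrays were not compared, so these values cannot decide whether the numbers pair the samples. With a replicate block the F-test count was 2 and the other 7 counts did not change, while 25 of the 27 single calls were kept. The filter on dim probe sets was not run.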
